A study of Mus musculus with 3 samples.

Results

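Cytochrome P450 genes were followed across the cell classes of kidneys from folic acid (FA)-treated mice. Members were all genes whose symbol is Cyp, a number, a letter and a number, leaving out the vitamin D enzymes Cyp24a1 and Cyp27b1. This gave 96 of the 27998 genes in the count matrices, in 36 subfamilies. In the 59262 cells kept, 22 members had no UMI (a uniquely labelled RNA molecule), 21 had 1 to 9, 11 had 10 to 99, 11 had at least 100 but under 1000 and 31 had at least 1000. Of the 96, 28 reached a mean level of 20 CPM (a gene's UMIs scaled to the UMI total of the class) in at least 1 class and are described by name, and the others are given by counts.

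The P450 enzymes are haem proteins that insert an oxygen atom into small, mostly fat-soluble molecules. Microsomal members take electrons from the reductase Por and mitochondrial members from the ferredoxin Fdx1. In the kidney they lie mainly in the proximal tubule (PT), where they oxidise fatty acids, arachidonic acid, steroids, drugs and solvents. Many of the mouse kidney genes are known to differ between the sexes.

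Kidney cells of 3 mice aged 6 to 8 weeks were sequenced 14 days after FA, with 1 library per mouse: 2 Aoah-/- mice (replicates 2 and 3) and 1 wild-type mouse (WT, replicate 3). Aoah-/- mice lack the LPS-degrading enzyme acyloxyacyl hydrolase in every cell; the study's methods describe them as backcrossed to C57/BL6J with WT littermates. All 3 mice received FA, so no comparison with untreated kidney was made. With 1 WT library no test between genotypes was run, and every genotype difference below compares these libraries. Intervals are 95% and cover counting error only.

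The libraries held 23072 to 25516 barcodes and 158551992 to 167222984 UMIs, and pairs of libraries shared 171 to 176 barcode sequences. The lowest barcode held 1672 UMIs in Aoah-/- replicate 3 and 500 in the other libraries. Aoah, the targeted gene, was at 6.06 and 5.68 CPM in the Aoah-/- libraries and 15.3 CPM in the WT library over all barcodes; whether the deleted part lies in the counted 3′ end is not given in the sources used here. The Y-linked gene Ddx3y was at 55.0 to 59.8 CPM and Xist at 21 to 37 UMIs in all 3 libraries, a male pattern. Cells fell into 44 clusters, from which P450 genes had been left out, and 18 classes were named by marker lists; 10.7% of cells stayed unnamed, from 3.72% (WT) to 18.7% (Aoah-/- replicate 3).

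Cyp2a4 and Cyp2a5 are shown first by sequence, because these genes of chromosome 7 start in almost the same letters and yet differed among PT cells. Cyp2a4 (+ strand, chr7:26307169-26315088) encodes a testosterone hydroxylase and Cyp2a5 (+ strand, chr7:26835305-26843548) a coumarin hydroxylase. The lines below give 250 bases before to 50 after each RefSeq start on GRCm38.p6, at chr7:26306942-26307241 and chr7:26835089-26835388. The RefSeq starts are not the same bases as the starts of the gene positions above, which are from GENCODE. Capitals mark bases that differ from, or have no partner in, the other gene.
Cyp2a4: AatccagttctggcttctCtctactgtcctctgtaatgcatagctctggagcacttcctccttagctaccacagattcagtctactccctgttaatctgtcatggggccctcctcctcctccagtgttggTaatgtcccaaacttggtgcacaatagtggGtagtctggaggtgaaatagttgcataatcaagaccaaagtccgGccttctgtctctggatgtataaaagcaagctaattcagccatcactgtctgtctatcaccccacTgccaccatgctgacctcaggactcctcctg
Cyp2a5: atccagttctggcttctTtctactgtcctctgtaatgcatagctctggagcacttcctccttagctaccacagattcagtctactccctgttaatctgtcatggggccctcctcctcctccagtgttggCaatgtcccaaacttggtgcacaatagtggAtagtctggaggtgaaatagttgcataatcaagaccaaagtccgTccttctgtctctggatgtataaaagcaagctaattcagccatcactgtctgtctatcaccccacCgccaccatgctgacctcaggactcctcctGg
Of 299 aligned bases, 294 (98.3%) were identical. Each window held the TATA box letters TATAAA once and the HNF1 half-site letters GTTAAT once, both strands searched; of 32544 promoters of this length, 13.6% held the first and 7.13% the second. Of the 28 named members, 19 had a promoter in the RefSeq table.

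P450 RNA lay mostly in the proximal tubule, and 3 genes made up most of it. Of 946898 P450 UMIs in kept cells, 80.6% were in PT-like cells. Cyp4b1, which hydroxylates fatty acids and activates some toxins, gave 36.4% of them. Cyp2e1, which oxidises ethanol and acetone, gave 20.5%. Cyp2j5, which forms epoxides of arachidonic acid, gave 15.3%, so that these 3 of 96 members held 72.2%. All members together were at 4081 CPM and 4437 CPM in PT-like cells of the Aoah-/- libraries and 4497 CPM in the WT library, a log2 ratio of -0.08 (SD between the Aoah-/- libraries 0.09).

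PT-like cells were split into S1/S2-like cells, S3-like cells and cells of no segment. S1/S2-like cells were named by markers of the convoluted part (2687, 1781 and 1845 cells in Aoah-/- replicates 2 and 3 and WT). S3-like cells were named by markers of the straight part (1666, 1538 and 2603 cells). Cells of no segment numbered 3666, 1348 and 4878 in the same order, with shallow medians of 1031, 3706.5 and 1632.5 UMIs. They are part of every result for all PT-like cells. The S3 marker Slc7a13 was at 678 CPM in S3-like and 31.5 CPM in S1/S2-like cells (means of 3 libraries). The S1/S2 marker Slc5a2 was at 623 CPM in S1/S2-like and 29.7 CPM in S3-like cells. One gene of the S1/S2 list went against it: Slc22a6 was at 434 CPM in S1/S2-like and 1043 CPM in S3-like cells. Slc34a1 of the same list differed little, at 4378 and 3688 CPM. Slc22a19 of the S3 list was at 9.57 CPM in S3-like cells and 196 CPM in a small subcluster of them described below. Whether S2 cells lay among the S3-like cells was not tested.

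The sum of P450 RNA was higher in S3-like than in S1/S2-like cells in each library. It was 3135, 2894 and 2901 CPM in S1/S2-like cells of Aoah-/- replicates 2 and 3 and WT. In S3-like cells it was 6021, 6249 and 6022 CPM, a mean log2 ratio of 1.04 (SD over 3 libraries 0.09). No test was made between clusters of the same cells. The 3 leading genes stood in another order in the 2 segments, Cyp4b1 before Cyp2j5 and Cyp2e1 in S1/S2-like cells on average, and Cyp4b1 before Cyp2e1 and Cyp2j5 in S3-like cells.

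Cyp4b1 was at 999, 947 and 1021 CPM in S1/S2-like cells (Aoah-/- replicate 2, Aoah-/- replicate 3, WT; the same order is used from here on) and at 2243, 2546 and 2482 CPM in S3-like cells. Cyp2e1 was at 673, 550 and 432 CPM in S1/S2-like cells and at 1451, 1547 and 1283 CPM in S3-like cells. The segment ratio of both genes was alike, 2.45-fold for Cyp4b1 and 2.59-fold for Cyp2e1. Cyp2j5 was nearly even along the tubule, at 644, 682 and 648 CPM in S1/S2-like and 819, 898 and 781 CPM in S3-like cells, a 1.26-fold ratio.

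**Figure D1:**
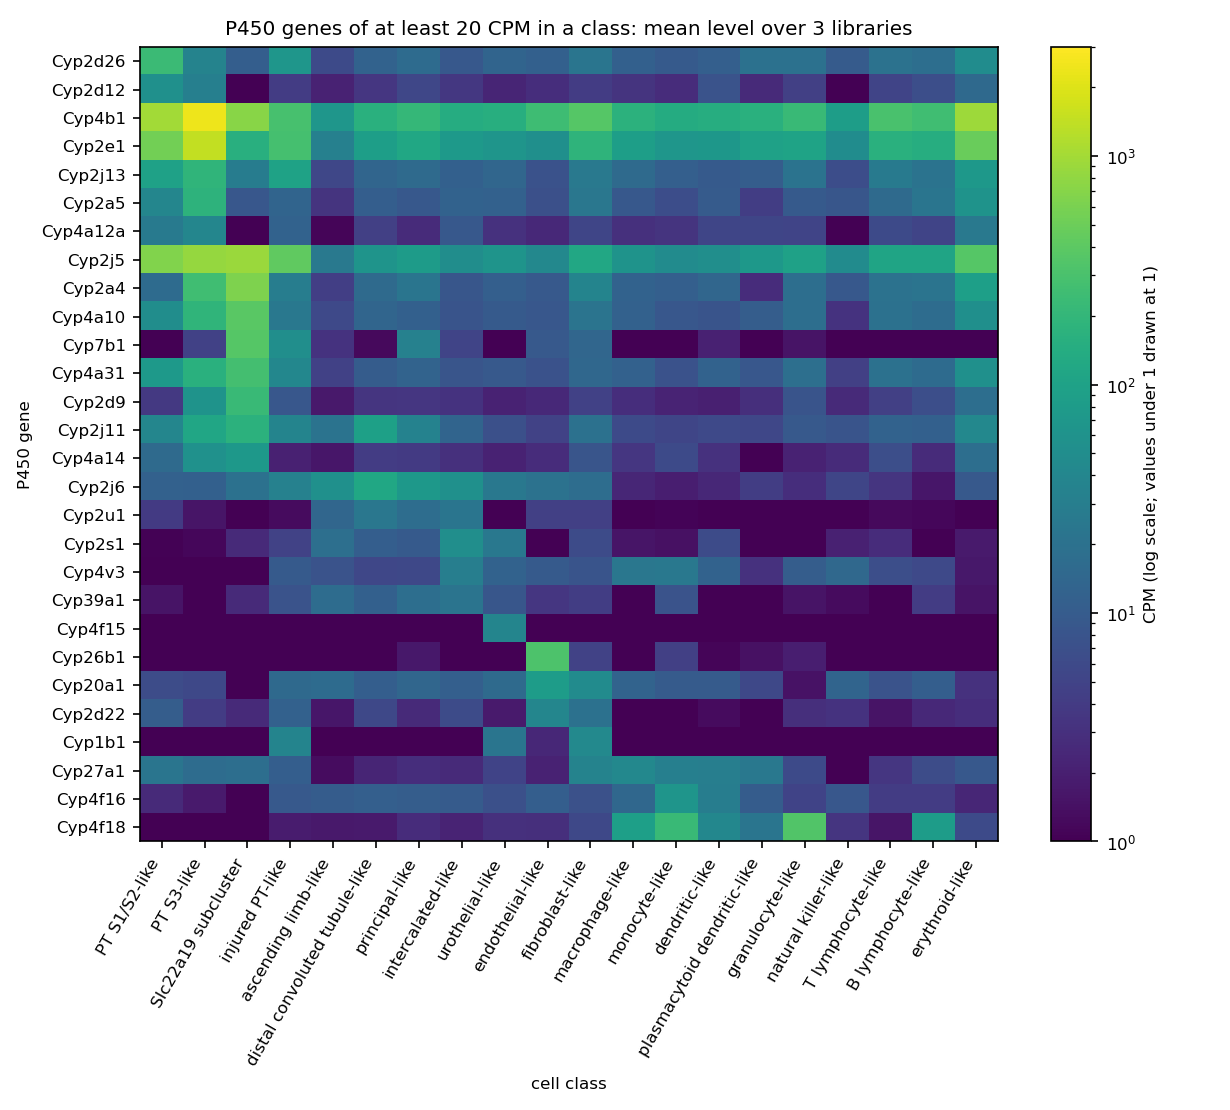
Mean CPM over 3 libraries (colour, log scale; values under 1 drawn at 1) of the 28 named P450 genes (rows) in each cell class (columns). Cyp4b1, Cyp2e1 and Cyp2j5 show in every column, while Cyp26b1 stands out in endothelial-like cells (322 CPM) and Cyp4f18 in granulocyte-like cells (347 CPM).

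Both Cyp2a genes were higher in S3-like than in S1/S2-like cells, by unequal amounts. Cyp2a4 was at 22.9, 10.5 and 16.3 CPM in S1/S2-like cells. In S3-like cells Cyp2a4 was at 227, 250 and 291 CPM, a mean log2 ratio of 4.01 (SD 0.64), or 15.4-fold. Cyp2a5, despite the matching start, differed by less: it was at 48.5, 27.3 and 43.9 CPM in S1/S2-like and 196, 154 and 189 CPM in S3-like cells, a log2 ratio of 2.20 (SD 0.26), or 4.50-fold. The 2 genes thus exchanged rank, Cyp2a5 being the higher in S1/S2-like and Cyp2a4 in S3-like cells of all 3 libraries. Within the last 500 transcript bases, 10.5% of the 90-base windows of Cyp2a4 also occurred in Cyp2a5 or the pseudogene Cyp2a21-ps. Of those of Cyp2a5, 1.70% also occurred in Cyp2a4. Reads from such windows cannot be told apart by sequence, and their effect on the levels of the 2 genes was not tested.

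Members of the Cyp2d subfamily, drug-oxidising enzymes encoded side by side on chromosome 15, went in opposite directions along the tubule. Cyp2d9 (chr15:82433437-82456845), a testosterone hydroxylase of male mice, was at 3.76 CPM in S1/S2-like and 61.0 CPM in S3-like cells on average, a mean log2 ratio of 4.11 (SD 0.55). Cyp2d26 (chr15:82790101-82794294) was at 227, 264 and 216 CPM in S1/S2-like cells. It was at 41.0, 38.0 and 28.2 CPM in S3-like cells, 6.59-fold less (log2 -2.73, SD 0.24). Cyp2d12 (chr15:82555072-82560403) was also higher in S1/S2-like cells in each library, with a mean log2 ratio of -0.82 (SD 0.21), as was Cyp2d22 at lower levels (10.5 against 4.13 CPM).

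The Cyp4a genes, which hydroxylate fatty acids at their end carbon and are known targets of the fatty acid receptor Ppara, were all but Cyp4a12b higher in S3-like cells among those described. The mean log2 ratio of S3-like to S1/S2-like cells was 2.02 (SD 0.43) for Cyp4a14, 1.99 (SD 0.36) for Cyp4a10, 1.13 (SD 0.19) for Cyp4a31 and 0.57 (SD 0.24) for Cyp4a12a. Cyp4a12b, whose transcript end overlaps in sequence with that of Cyp4a12a (30.2% of windows), was at 9.97 CPM in S1/S2-like and 8.87 CPM in S3-like cells. Cyp2j11 and Cyp2j13, of the epoxide-forming Cyp2j subfamily, were 2.88-fold and 1.97-fold higher in S3-like cells. Cyp27a1, the mitochondrial sterol hydroxylase, was slightly lower there, at 17.1 against 22.3 CPM. The 15 Cyp2c genes gave little RNA in either segment (20.2 CPM in S1/S2-like and 16.0 CPM in S3-like cells), nearly all of it from Cyp2c44 (17.5 and 15.7 CPM).

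A small subcluster of 79 S3-like cells (19, 24 and 36 by library) marked by the transporter Slc22a19 differed in its P450 levels from the S3-like cells as a whole. Because P450 genes were left out of the clustering, they did not define it. Cyp7b1, an oxysterol hydroxylase, was at 177, 253 and 647 CPM there (23, 83 and 249 UMIs), against a mean of 4.67 CPM in all S3-like cells and 0.192 CPM in S1/S2-like cells. Cyp2a4 was at 493, 894 and 525 CPM there, against a mean of 256 CPM in all S3-like cells. Cyp2a5 was at a mean of 8.71 CPM, against 180 CPM in all S3-like cells. The difference between the 2 genes of near-identical start was therefore widest in these cells. Cyp2d9 was at 262, 247 and 174 CPM there, 3.73-fold above S3-like cells as a whole. Cyp4a10 (385 against 187 CPM) and Cyp4a31 (274 against 161 CPM) were also higher in all 3 libraries. Cyp2e1 (157 against 1427 CPM), Cyp2j13 (29.0 against 190 CPM) and Cyp4b1 (714 against 2424 CPM) were lower. Cyp4a12a and Cyp2d12 gave 0 and at most 2.60 CPM there.

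**Figure D2:**
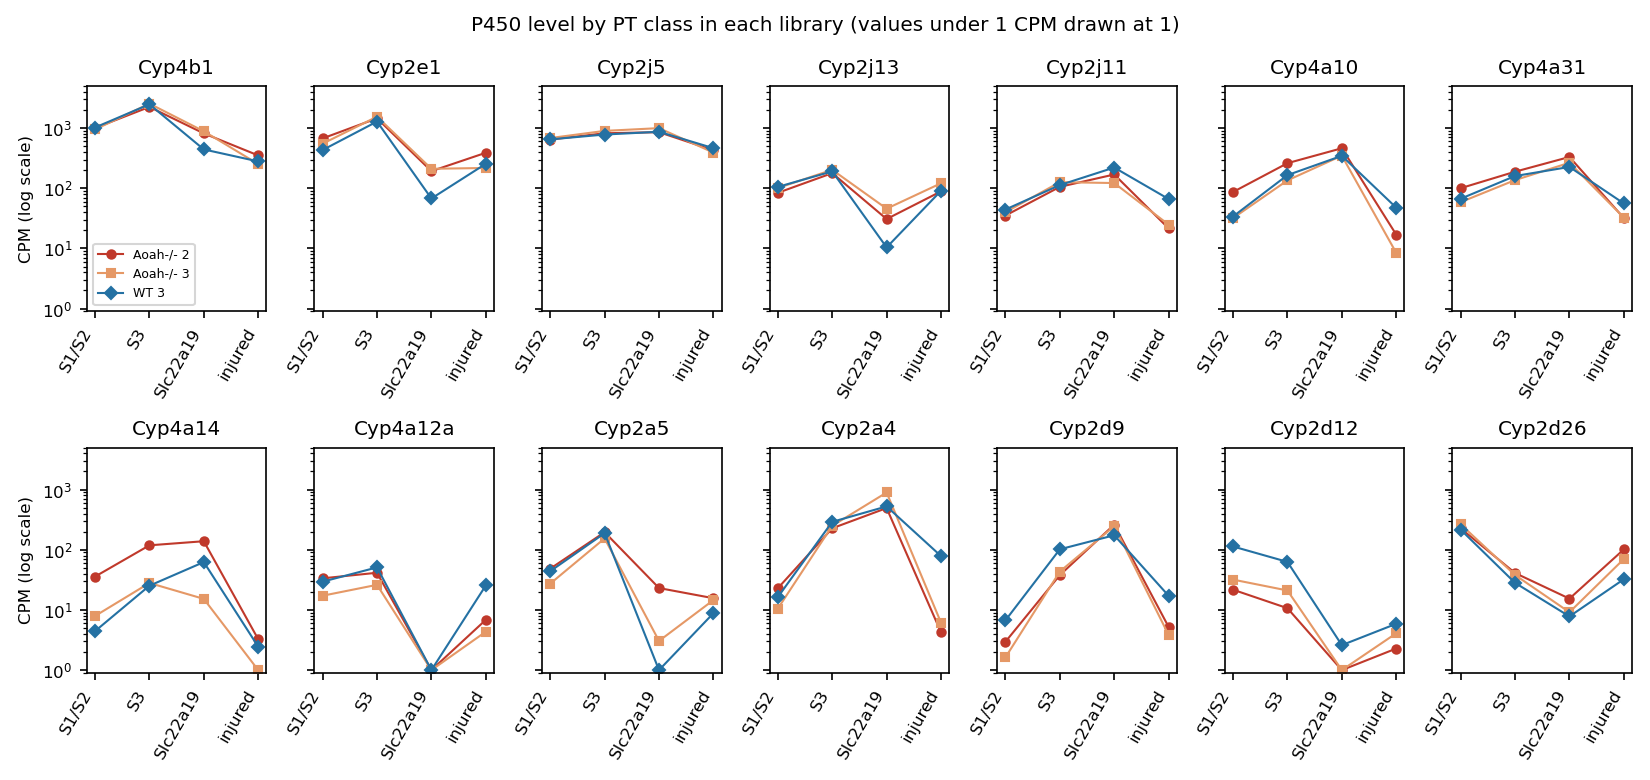
CPM (log scale; values under 1 drawn at 1) of 14 P450 genes in S1/S2-like, S3-like, Slc22a19 and injured PT-like cells, with 1 line per library. Cyp2a4 and Cyp2d9 are highest in the Slc22a19 cells and Cyp2a5 and Cyp4b1 in the S3-like cells, while Cyp2d26 is highest in the S1/S2-like cells.

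Between genotypes the total changed little, but single Cyp2d and Cyp4a genes did not follow it. Summed over all members, the mean of the Aoah-/- libraries against WT gave a log2 ratio of 0.06 (SD between the Aoah-/- libraries 0.08) in S1/S2-like and 0.03 (SD 0.04) in S3-like cells. A gene was counted as lower or higher where both Aoah-/- libraries lay on 1 side of the WT library and their mean differed from it by at least 1.5-fold. Only genes with a mean of at least 20 CPM over the 3 libraries, WT included, were considered. A gene high in WT alone could pass this level and then count as lower. In S1/S2-like cells 12 members reached that level; 1 was lower (Cyp2d12) and 0 were higher, where 1.38% of all 5087 genes were lower and 1.26% higher. In S3-like cells 14 members reached it; 3 were lower (Cyp2d12, Cyp2d9 and Cyp4a12a) and 1 higher (Cyp4a14), where 2.49% of 4703 genes were lower and 1.34% higher. The median log2 ratio was -0.05 over the members and -0.08 over all genes in S1/S2-like cells, and 0.01 against -0.06 in S3-like cells.

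Among the members of at least 20 CPM, Cyp2d12 had the largest difference in both segments. In S1/S2-like cells it was at 21.7 CPM (19.9 to 23.5) and 31.9 CPM (29.4 to 34.5) in the Aoah-/- libraries and 113 CPM (108 to 118) in the WT library. Both Aoah-/- values lay below the WT value. The log2 ratio was -2.08 (SD 0.39), 4.23-fold lower in Aoah-/-. The intervals count each UMI as independent and leave out that these UMIs lay in a minority of cells. In S3-like cells Cyp2d12 was at 10.7, 21 and 62.8 CPM, a log2 ratio of -1.99 (SD 0.69). Its Aoah-/- mean there was under 20 CPM, so it passed that level through WT. In both segments the Aoah-/- libraries differed from each other by less than either did from WT.

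Cyp2d12 RNA was held by a minority of cells. In S1/S2-like cells of the WT library 348 of 1845 cells (18.9%) had a Cyp2d12 UMI, whereas Cyp2j13, at a similar 105 CPM in the same cells, was seen in 47.8%. The 5% of cells with most Cyp2d12 held 60.6% of its UMIs in the WT library, against 28.3% for Cyp2j13. In the Aoah-/- libraries 5.06% and 6.06% of S1/S2-like cells had a Cyp2d12 UMI. Those cells carried 4.15 and 5.81 UMIs each on average, and 5.88 in the WT library. The number of Cyp2d12-bearing cells thus differed more between libraries than the UMIs per such cell did. Of the 12 members measured in S1/S2-like cells and the 14 in S3-like cells, Cyp2d12 was the most unevenly spread over cells by this measure.

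When every cell was thinned to 1000 UMIs, a Cyp2d12 UMI was seen in 1.44% (1.01 to 1.97), 1.80% (1.23 to 2.53) and 8.23% (7.0 to 9.6) of S1/S2-like cells, leaving out 111, 0 and 59 shallower cells. In S3-like cells the shares were 0.967%, 1.04% and 5.01%. T lymphocyte-like cells, which should lack the gene, had shares of 0.254%, 0.191% and 0.580%. Among the cells deep enough to be thinned, median depths before thinning were 7732 to 7924 UMIs in S1/S2-like and 2592 to 3041 UMIs in T lymphocyte-like cells. The level in T lymphocyte-like cells, 2.08, 1.96 and 11.5 CPM, followed that of PT-like cells of the same library.

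Cyp2d9 was at 37.9 CPM (35.2 to 40.8), 43.4 CPM (40.6 to 46.3) and 102 CPM (98.4 to 105) in S3-like cells. The Aoah-/- values were close to each other and both below WT, a log2 ratio of -1.32 (SD 0.14), 2.50-fold lower. Thinned shares of S3-like cells with a Cyp2d9 UMI were 2.96%, 3.97% and 8.40%, against 0 to 0.331% in T lymphocyte-like cells. In the Slc22a19 subcluster, of 19, 24 and 36 cells, the order was the opposite, 262 and 247 CPM against 174 CPM in WT. Intervals for these few cells are not given here.

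**Figure D3:**
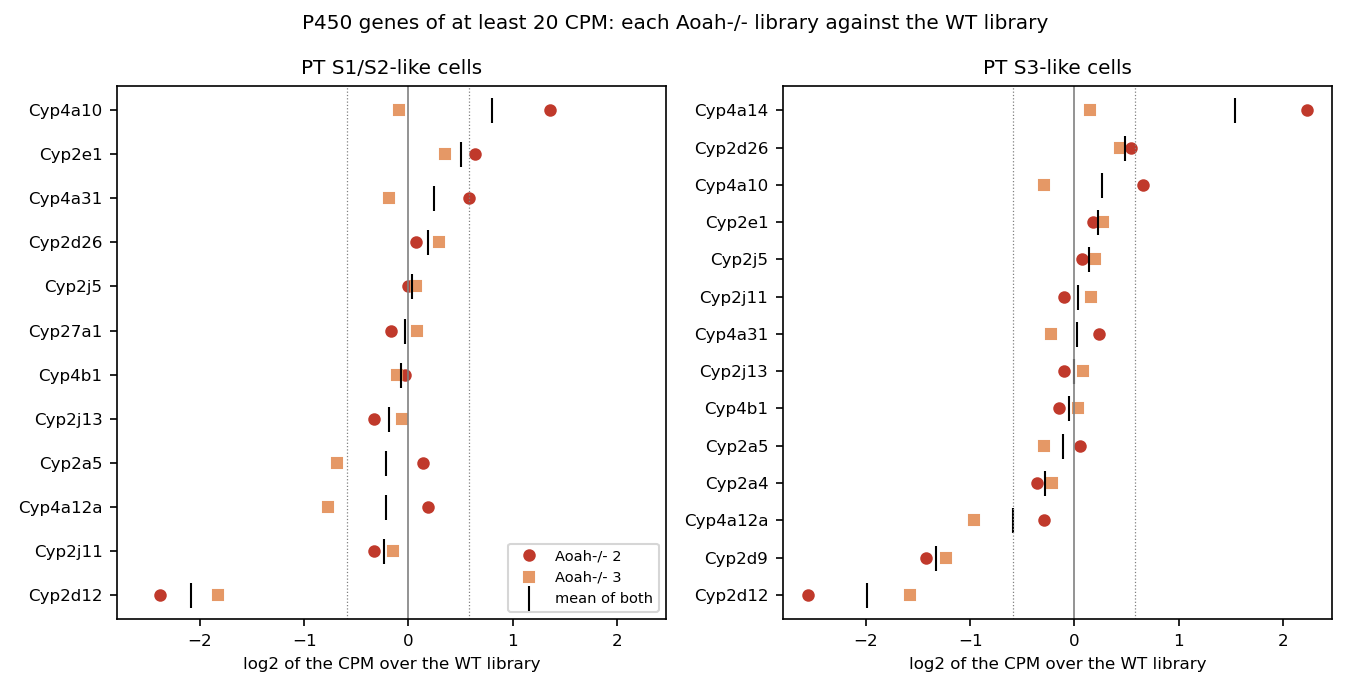
Log2 ratio of each Aoah-/- library (points) and of their mean (bar) to the WT library for P450 genes of at least 20 CPM, in S1/S2-like (left) and S3-like cells (right); dotted lines mark 1.5-fold. Cyp2d12 lies far to the left in both panels, and Cyp4a14 and Cyp4a10 are split between the Aoah-/- libraries. Cyp2d9 lies to the left in the right panel and is not drawn in the left, being under 20 CPM in S1/S2-like cells.

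The size of the Cyp4a differences rested largely on 1 Aoah-/- library. Cyp4a14 was at 118, 28.0 and 25.3 CPM in S3-like cells, so that Aoah-/- replicate 2 was high and replicate 3 lay next to WT; the log2 ratio was 1.54 with an SD of 1.47, and 0.15 without replicate 2. Cyp4a10 was at 261, 135 and 165 CPM there and at 86.6, 31.9 and 33.9 CPM in S1/S2-like cells, again high in replicate 2 alone. Cyp4a31 followed the same order, at 188, 136 and 160 CPM in S3-like cells. Cyp4a12a was at 41.5, 26.1 and 50.9 CPM in S3-like cells, a log2 ratio of -0.59 (SD 0.47) just past the 1.5-fold line.

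The abundant members differed by less than 1.5-fold between genotypes in both segments. For Cyp4b1 the log2 ratio was -0.07 (SD 0.06) in S1/S2-like and -0.05 (SD 0.13) in S3-like cells. For Cyp2j5 it was 0.03 (SD 0.06) and 0.14 (SD 0.09). Cyp2e1 was higher in both Aoah-/- libraries, by 0.50 (SD 0.21) in S1/S2-like and 0.22 (SD 0.07) in S3-like cells on the log2 scale. Cyp2j13, Cyp2j11, Cyp2a5 and Cyp27a1 had log2 ratios between -0.24 and 0.04 in the segments where they reached 20 CPM, apart from an SD of 0.58 for Cyp2a5 in S1/S2-like cells.

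Over all PT-like cells 14 members were measured; 3 were lower in Aoah-/- (Cyp2d12, Cyp2d9 and Cyp2a4) and 2 higher (Cyp4a14 and Cyp2d26), where 1.32% of 4910 genes were lower and 2.32% higher. Cyp2a4 was at 109, 131 and 186 CPM and Cyp2d26 at 134, 137 and 77.2 CPM in PT-like cells. The mix of segments also differed between libraries: S3-like cells were 1666 of 8019, 1538 of 4667 and 2603 of 9326 PT-like cells, and S1/S2-like cells 2687, 1781 and 1845. Its part in these 2 differences was not tested. Within S3-like cells the log2 ratio of Cyp2a4 was -0.29 (SD 0.10), and within S1/S2-like cells that of Cyp2d26 was 0.19 (SD 0.16). Cyp2d12 and Cyp2d9 lay below WT in both Aoah-/- libraries within each of the 10 PT subclusters that held at least 50 cells per library. Where the level reached 10 CPM, the WT value was 2.90 to 5.73 times the Aoah-/- mean for Cyp2d12 (9 subclusters) and 1.78 to 3.89 times for Cyp2d9 (7 subclusters). Cyp4a14 was highest in Aoah-/- replicate 2 in 10 of 10 subclusters, and above WT in both Aoah-/- libraries in 8 of 10. In the 9 subclusters at 10 CPM or more it was at 2.71 to 10.6 times WT in replicate 2. In replicate 3 it was at 0.65 to 2.63 times WT in the same 9. Cyp2j6, at 13.6, 12.4 and 8.06 CPM in PT-like cells, was above WT in both Aoah-/- libraries in 10 of 10 subclusters. The subclusters hold cells of the same libraries, so these counts are not replicates. Subclusters 0, 4, 6 and 9 among the 10 had no segment. Subcluster 0 had a median of 835 UMIs. Subcluster 9 (82, 468 and 79 cells) had H2-Eb1, Ccl5, Cd52 and the macrophage marker C1qa among its leading genes. The share of all genes that lie on 1 side of WT in all 10 is not given here.

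**Figure D4:**
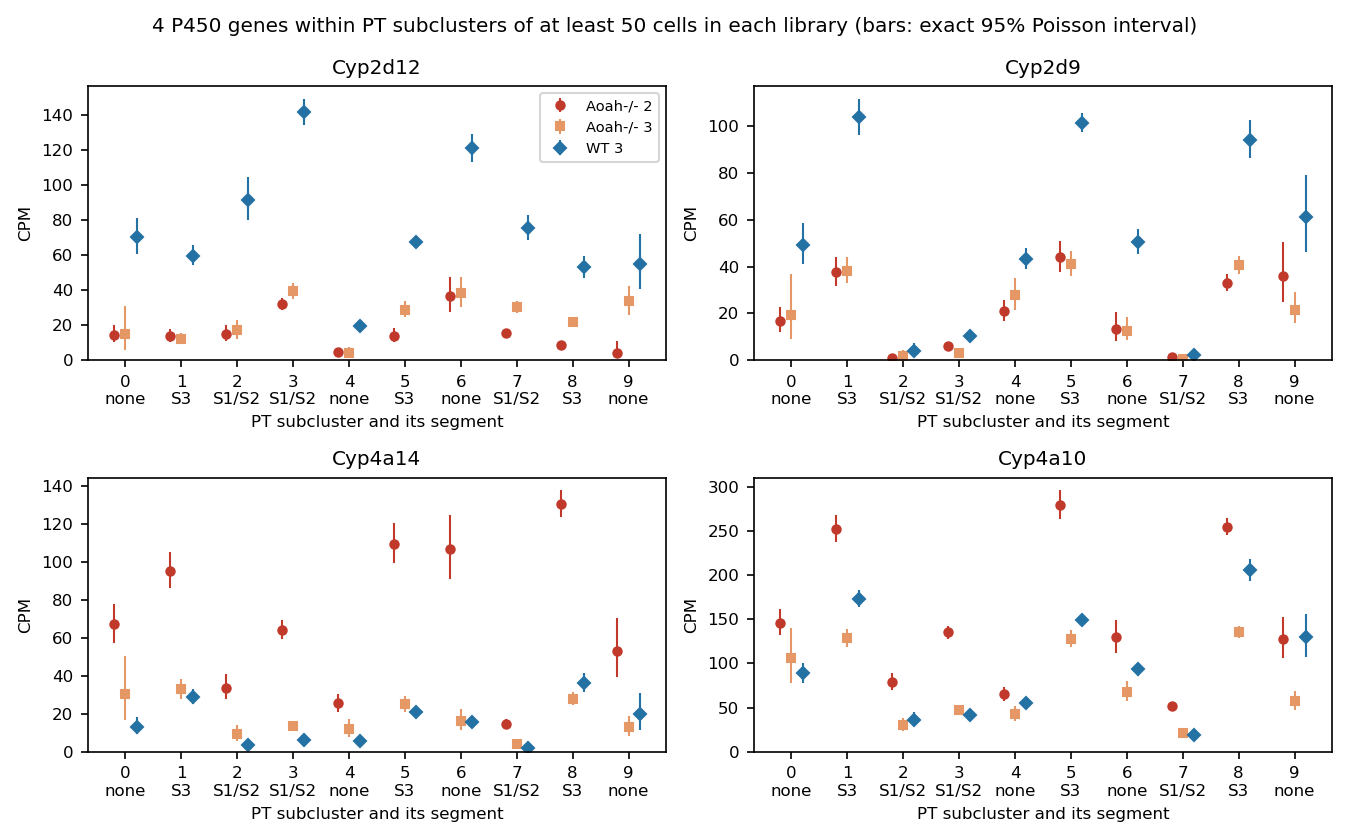
CPM of Cyp2d12, Cyp2d9, Cyp4a14 and Cyp4a10 in each library within the 10 PT subclusters of at least 50 cells per library (segment written under the number); bars are exact 95% Poisson intervals. The WT library is the highest for Cyp2d12 and Cyp2d9 in all 10, and Aoah-/- replicate 2 for Cyp4a14.

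Markers of other cells differed between the PT-like cells of the genotypes. In S1/S2-like cells the 9 macrophage markers summed to 55.7, 38.7 and 22.5 CPM, the 6 granulocyte markers to 17.0, 18.4 and 7.48 CPM, the 7 ascending limb markers to 105, 94.0 and 48.6 CPM, and the 5 erythroid markers to 127, 112 and 328 CPM. In S3-like cells the macrophage sums were 63.7, 47.2 and 23.4 CPM and the erythroid sums 67.7, 103 and 230 CPM. Each of these genes was detected. Cells that held an immune marker UMI were 46.4%, 44.5% and 22.3% of S1/S2-like and 47.3%, 50.9% and 29.4% of S3-like cells. Without them, the log2 ratio of Cyp2d12 was -1.91 in S1/S2-like and -2.20 in S3-like cells, and that of Cyp2d9 -1.29 in S3-like cells. The immune markers were those of T and B lymphocytes, macrophages and granulocytes, so cells with erythroid or ascending limb marker UMIs were kept. The part of other cells' RNA in these differences was not tested.

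Injured PT-like cells (241, 374 and 154 cells; Vcam1 at 528 to 637 CPM) held less P450 RNA than PT-like cells as a whole, at 1645, 1370 and 1750 CPM in total (log2 -1.46, SD over 3 libraries 0.21). The difference was uneven. Cyp4b1 was 5.59-fold and Cyp2e1 3.31-fold lower than in PT-like cells, whereas Cyp2j5 was 1.63-fold lower, so that Cyp2j5 (427, 391 and 463 CPM) ranked first. Cyp1b1, an enzyme of aromatic hydrocarbons and oestrogen, was at 28.4, 42.5 and 40.2 CPM in injured cells and at a mean of 0.0796 CPM in PT-like cells. Cyp2j6 was 3.0-fold higher in injured cells, at 34.6, 33.8 and 33.8 CPM.

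Among 12 members measured in injured cells, 5 were lower in Aoah-/- (Cyp7b1, Cyp2a4, Cyp4a10, Cyp2j11 and Cyp4a31) and 1 higher (Cyp2d26), where 3.67% of 6270 genes were lower and 3.22% higher. Cyp7b1 was at 3.26, 15.9 and 135 CPM and Cyp2a4 at 4.24, 6.14 and 78.4 CPM, genes of the S3 and Slc22a19 cells above. Both passed the 20 CPM level only through the WT library. Cyp2d26, of the S1/S2-like cells, was at 101, 70.1 and 32.4 CPM. The segment markers of the injured cells moved the same way: Slc7a13 was at 38.1, 44.8 and 279 CPM and Slc5a12 at 213, 137 and 64.7 CPM. Markers of other cells moved too: the erythroid sums were 849, 999 and 203 CPM, the ascending limb sums 290, 290 and 83.8 CPM, the macrophage sums 126, 86.0 and 53.9 CPM and the granulocyte sums 12.4, 92.1 and 5.88 CPM. The part of either in the differences was not tested.

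Electron donors and haem enzymes differed less between genotypes than Cyp2d12 and Cyp2d9 did. Of 8 electron donors 7 were measured in each PT class and none was counted as lower or higher. Por was at 126, 122 and 131 CPM in S1/S2-like and 179, 185 and 177 CPM in S3-like cells. Cyb5a, the cytochrome that passes electrons to some P450 enzymes, was at 1011, 1059 and 1344 CPM and at 2022, 2337 and 2684 CPM, so it was higher in S3-like cells as the P450 sum was. Of 10 genes of haem synthesis and breakdown 8 were measured. The haem oxygenase Hmox1 was the 1 counted as lower, in S3-like cells (26.3, 21.4 and 35.9 CPM), where 2.49% of 4703 genes were lower. Alas1, which starts haem synthesis, was at 95.1, 59.9 and 114 CPM there. Ephx2, which opens the epoxides formed by Cyp2j enzymes, was at 156, 163 and 176 CPM in S1/S2-like and 293, 316 and 319 CPM in S3-like cells. Ephx1 was lower in Aoah-/- in injured cells, the 1 call among the hydrolases, where 3.67% of 6270 genes were lower.

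Of 15 transcription factors known to act on P450 genes, 7 were measured and Bcl6 alone was lower in Aoah-/-. Of all genes, 1.38% of 5087 were lower in S1/S2-like and 2.49% of 4703 in S3-like cells. Bcl6, a repressor, was at 7.75, 20.5 and 62.5 CPM in S1/S2-like and at 6.80, 35.6 and 90.5 CPM in S3-like cells. Both Aoah-/- values lay below the WT value, and replicate 2 was the lowest in both segments. In S1/S2-like cells the Aoah-/- mean of Bcl6 was under 20 CPM, so it passed that level through WT. Hnf4a (234, 229 and 289 CPM in S1/S2-like cells) and Ppara (54.2, 46.8 and 54.1 CPM) differed by less than 1.5-fold. Stat5b was below 20 CPM, at 14.5, 15.2 and 12.9 CPM.

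Outside the proximal tubule most of the signal of the 3 leading genes was near the level set by the share of PT marker RNA in each class. How that RNA came to these classes was not tested. T lymphocyte-like cells, which should lack them, held Cyp4b1 at 253, 290 and 348 CPM, Cyp2e1 at 166, 162 and 159 CPM and Cyp2j5 at 105, 113 and 107 CPM. In the same cells 15 PT markers stood at 15.3%, 16.0% and 15.8% of their PT level. Multiplying each gene's PT level by that share gave a background for each class, from 3.17% of the PT level in ascending limb-like to 64.2% in erythroid-like cells. Over 16 classes, measured Cyp2e1 was 0.82 to 1.24 times and Cyp2j5 0.95 to 1.30 times this background, and they were read as background there. Of 291 pairs of a member and a class at 5 CPM or more, 164 lay within 2-fold of it and 120, from 23 genes, were at least 2-fold above it in all 3 libraries. This background leaves out RNA from classes other than PT. For a gene nearly absent from PT it is very low, so such a gene exceeds it wherever it is counted. Cyp4f18 at 6.05 CPM in erythroid-like cells is among the 120, and whether it was made there was not tested. The share of all genes above the background by this rule was not computed, so these counts are not particular to P450 genes.

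**Figure D5:**
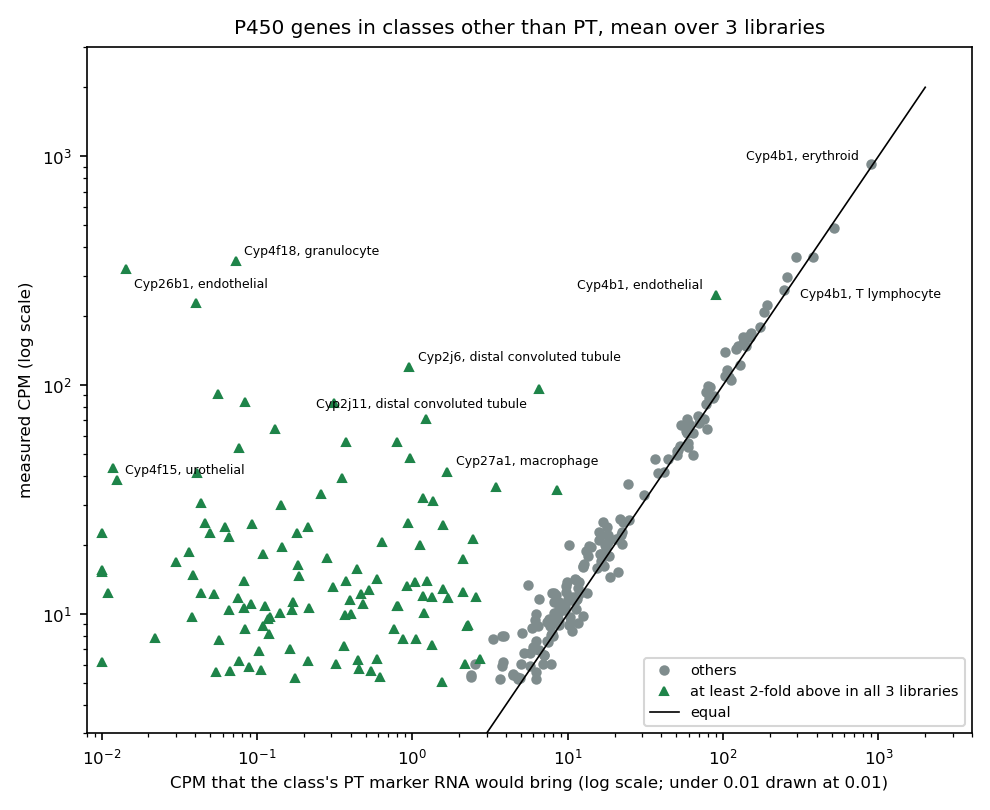
Measured CPM of P450 genes in classes other than PT (vertical, log scale) against the CPM that the PT marker RNA of the class would bring (horizontal, log scale), means of 3 libraries. Grey points of Cyp4b1, Cyp2e1 and Cyp2j5 follow the line of equality, and green triangles mark the 120 pairs at least 2-fold above it in all 3 libraries, such as Cyp26b1 in endothelial-like cells.

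Endothelial-like cells held 10 members at least 2-fold above the background in all 3 libraries, a count with no share of all genes beside it. Cyp26b1, which breaks down retinoic acid, was their leading member at 339, 113 and 514 CPM, and its thinned share of cells was 23.3%, 8.99% and 31.3%, against 0 to 0.0964% in T lymphocyte-like cells. The Aoah-/- libraries lay apart from each other, and the difference of their mean from WT (log2 -1.19, SD 1.12) was close to their spread. Cyp4b1 was at 261, 241 and 238 CPM in endothelial-like cells against a background of 92.6, 86.7 and 90.2 CPM, the 1 class of 16 where it exceeded the background by more than 1.35 times. Cyp20a1, a P450 of no known substrate, was at 78.2, 84.0 and 86.9 CPM, and Cyp2d22 at 32.8, 44.7 and 40.3 CPM. Fibroblast-like cells also held Cyp20a1 (62.5, 38.7 and 42.9 CPM) and Cyp1b1 (52.5, 31.3 and 46.8 CPM).

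In the distal nephron Cyp2j6 was the leading member above the background. Cyp2j6 was at 114, 129 and 115 CPM in distal convoluted tubule-like cells, 73.2, 72.5 and 66.9 CPM in principal-like, 52.0, 54.3 and 63.2 CPM in ascending limb-like and 58.7, 57.0 and 53.1 CPM in intercalated-like cells. Each of these lay above the 12 CPM and 11.6 CPM of S1/S2-like and S3-like cells. Cyp2j11, a PT gene too, was at 85.2, 97.2 and 105 CPM in distal convoluted tubule-like cells. In ascending limb-like cells it was at 13.1, 14.6 and 36.1 CPM. Intercalated-like cells held Cyp2s1 (55.2, 63.8 and 39.9 CPM), Cyp4v3, a fatty acid hydroxylase (30.1, 34.7 and 27.0 CPM) and Cyp39a1, an oxysterol hydroxylase (22.7, 22.5 and 19.5 CPM). Cyp2u1 was highest in distal convoluted tubule-like cells (19.9, 25.5 and 26.7 CPM). Cyp7b1 was at 28.2, 37.6 and 34.4 CPM in principal-like cells. Urothelial-like cells held Cyp4f15 at 42.2, 40.6 and 32.6 CPM, and Cyp1b1 at 63.6, 3.29 and 0.435 CPM, so that 1 library set its mean there.

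Cyp4f RNA was above its PT level in granulocyte-like, monocyte-like, macrophage-like, dendritic-like and B lymphocyte-like cells (78.7 to 363 CPM in sum, against 18.1 CPM in PT-like cells), but not in T lymphocyte-like cells (14.7 CPM). Cyp4f18, which inactivates leukotrienes in neutrophils, was at 362, 347 and 331 CPM in granulocyte-like cells, where it was the leading P450 gene. It was at 205, 232 and 248 CPM in monocyte-like, 95.6, 99.7 and 78.3 CPM in macrophage-like and 117, 57.1 and 78.9 CPM in B lymphocyte-like cells. Its log2 ratio between genotypes in granulocyte-like cells was 0.10 (SD 0.04). Cyp4f16 was highest in monocyte-like cells (64.9, 78.3 and 49.2 CPM). Cyp27a1 was higher in macrophage-like cells (38.7, 43.8 and 42.7 CPM) than in S1/S2-like cells (20.2, 24.0 and 22.7 CPM). Fibroblast-like cells held it at 17.5, 18.6 and 71.2 CPM.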

How the data were processed

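Kidneys were digested to single cells and sequenced with 10x Genomics 3′ chemistry, 1 library per mouse. The authors deposited raw UMI counts per gene and barcode, not normalized; the submitters' processing notes name Cell Ranger 3.1.0, STAR, mm10 and Seurat 4.2.0, while the matrix headers name Cell Ranger 6.1.2. As 3′ ends were counted, UMIs do not scale with transcript length.

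Cells needed 200 detected genes or more, with mitochondrial genes giving no more than 50% of UMIs (21368, 19692 and 18202 cells in Aoah-/- replicates 2 and 3 and WT passed). Cells were clustered on 50 principal components of 2000 variable genes, 15 neighbours and Leiden communities at resolution 1 (igraph 0.11.9), then PT-like cells again at 0.5 on 30 components, with Aoah, the P450 genes, MHC II genes and Cd74 set aside. Classes were named from marker lists, and a name ending in "-like" refers to those lists. A PT subcluster was given a segment where the mean log2 difference between the S1/S2 and S3 lists was at least 1, with at least 5 markers of that segment. No doublets were removed; leaving out the 10% of cells with the highest Scrublet scores (scanpy 1.11.5) was an alternative.

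For each class of a library, a gene's UMIs were added up over cells and scaled to the UMI total of the class as CPM, with exact Poisson 95% intervals; shares of cells have Clopper-Pearson 95% intervals after thinning to 1000 UMIs per cell. Differences are the log2 ratio of the mean of the 2 Aoah-/- libraries to the WT library, with the SD between the 2 Aoah-/- log2 ratios. Over all barcodes the libraries held 158551992 to 167222984 UMIs, with a median of 3357 to 3859 UMIs per kept cell. No test was run between 2 Aoah-/- libraries and 1 WT library. Named genes are the members of at least 20 CPM, as mean over 3 libraries, in a PT class or another class of at least 50 cells per library. Gene positions are from GENCODE M21 (GRCm38, the sequence of mm10). Of the 28 named members, 23 shared no 90-base window of the last 500 transcript bases with another Cyp gene. Members, lists and rules were chosen with earlier results of these data known. The rule for counting genes as lower or higher and the Poisson intervals were tested on simulated counts. Those counts had no spread between mice, so they do not show how often the rule counts unchanged genes here. Python 3.11.15, numpy 2.4.6, pandas 2.3.3 and scipy 1.17.1 were used.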

Additional observations from a re-analysis of the deposited data

Results flagged for a closer look

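Cyp11a1, the enzyme that starts steroid synthesis from cholesterol, gave a signal in cells that no comparison used. In an unnamed cluster of 19 cells, with Ifitm1, Ccl3, Hdc and Mcpt8 among its leading genes, Cyp11a1 was at 1310 CPM (95% Poisson interval 1042 to 1626), with 82 UMIs in 18 of 19 cells. The 3 libraries gave 18, 30 and 34 UMIs from 6, 5 and 8 cells (Aoah-/- replicate 2, Aoah-/- replicate 3, WT). The highest level in any named class was 1.18 CPM, and 124 UMIs were counted in all kept cells. The gene was picked after its values were seen, and clusters of under 50 cells were not named.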

How the results depend on the processing

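With 1 WT library and 1 library per Aoah-/- mouse, differences describe these 3 libraries, and counting intervals leave out the spread between mice. No paired analysis was possible because the genotypes share only replicate number 3. Of 943 values recomputed under alternatives, 805 moved by less than the spread between libraries (or 1.5 times for a count), 138 moved further and 0 changed sign while called. For genotype differences that spread was the SD between the 2 Aoah-/- libraries, so the 805 do not show how much leaving out 1 of them mattered. Cyp4a14 in S3-like cells, at a log2 ratio of 0.15 without replicate 2, is among the 805.

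Cyp2d12 stayed lower in Aoah-/- in all 14 alternatives in S1/S2-like cells (log2 -2.39 to -1.83) and all 15 in S3-like cells (-2.56 to -1.58), and Cyp2d9 in all 15 in S3-like cells (-1.44 to -0.95). Cyp4a14 was counted as higher in 12 of 15 in S3-like cells (0.15 to 2.23), Cyp4a12a as lower in 12 of 15, and Cyp2a4 as lower in 7 of 13 over all PT-like cells. Leaving out an Aoah-/- replicate gave 1 to 2 members higher in PT-like cells, 0 to 2 in S1/S2-like and 0 to 2 in S3-like cells, and 1 to 3 lower in S1/S2-like cells. Without replicate 2, Cyp4a14 was no longer counted as higher in S3-like cells (0.15), and Cyp2a5 (-0.69) and Cyp4a12a (-0.78) were counted as lower in S1/S2-like cells. Without replicate 3, Cyp4a12a was no longer lower in S3-like cells (-0.30), Cyp4a10 was higher there (0.66), and Cyp4a10 (1.35) and Cyp2e1 (0.64) were higher in S1/S2-like cells. Members higher in S1/S2-like cells numbered 1 with median-ratio size factors (Cyp2e1), without mitochondrial genes in the total (Cyp4a14), with means of per-cell values (Cyp2e1) or at finer clustering (Cyp4a10), and 2 (Cyp4a10 and Cyp2e1) with at least 500 genes per cell. With no minimum CPM, 10 members were higher and 17 lower in PT-like cells, 6 and 13 in S1/S2-like, and 6 and 14 in S3-like cells. The share of all genes called is not given for any alternative in this section. These counts are therefore not read as a result about the members. At most 20% mitochondrial UMIs gave 2 lower in S1/S2-like cells; per-cell marker UMIs gave 0 higher and the doublet filter 2 higher in S3-like cells.

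The summed log2 difference was 0.15 in S1/S2-like and 0.071 in S3-like cells with median-ratio size factors, 0.031 in PT-like cells with per-cell means, and 0.24 in S1/S2-like cells with at least 500 genes. The summed segment log2 ratio was 0.94 in Aoah-/- replicate 2 alone, 0.87 at 20% mitochondrial UMIs and 1.23 with at least 500 genes. Summed CPM in S1/S2-like cells was 2757 with per-cell marker UMIs, 2685 with at least 500 genes and 3145 at finer clustering; in S3-like cells 5735, 6284 and 6241, and 5668 at 20% mitochondrial UMIs, which gave 1216 in injured PT-like cells. In endothelial-like cells it was 1380, 1164 and 1240, in T lymphocyte-like cells 401, 295 and 258 (243 at 20% mitochondrial UMIs), and 474 in distal convoluted tubule-like cells at finer clustering. The log2 ratio of shares of cells with Cyp2d12 was -2.12, -2.11 and -1.76 (500, 2000 and no thinning) in S1/S2-like and -2.80, -2.19 and -1.73 in S3-like cells; for Cyp2d9 at 500 UMIs it was -1.60. Equal weight to each PT subcluster, chosen after seeing the data, gave 0.18 and 2 members higher in S1/S2-like cells, and -0.016 and 0 higher in S3-like cells. Leaving the Slc22a19 subcluster out of the S3-like cells, also chosen after seeing the data, left 3 members lower and 1 higher there. The causes were not tested.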

Other observations

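Cyp2c44, an arachidonic acid epoxygenase, was not among the named members: it was at 16.8, 16.5 and 19.2 CPM in S1/S2-like cells and 18.9, 14.0 and 14.3 CPM in S3-like cells (Aoah-/- replicate 2, Aoah-/- replicate 3, WT). Cyp4f13 was at 14.5, 15 and 13.6 CPM in S1/S2-like and 15.8, 15.5 and 15.7 CPM in S3-like cells.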
